A study of Mus musculus with 11 samples.

Results

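The nuclear-encoded genes of the mitochondrial respiratory chain were followed in the mouse retina at 2 postnatal ages, with and without a potassium channel transgene. Members were taken by name: protein-coding genes whose mouse symbol begins with Nduf, Uqcr, Atp5 or Cox4 to Cox8, or is Sdha, Sdhb, Sdhc or Sdhd. The rule found 93 of the 47069 Ensembl genes counted, and 11 further rows with a matching symbol were left out because they are not annotated as protein-coding. The members comprise 7 core subunits, 29 accessory subunits and 8 assembly factors of complex I, 4 subunits of complex II, 8 of complex III, 20 of complex IV and 17 genes named for ATP synthase. Ndufa4 and Ndufa4l2 were placed with complex IV, where the Ndufa4 protein is now assigned.

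The series holds 11 RNA-seq libraries of C57BL/6 mouse retina, in 4 groups: wild type at postnatal day 4 (P4, n = 2), Brn3b-Kir2.1 at P4 (n = 3), wild type at P8 (n = 3) and Brn3b-Kir2.1 at P8 (n = 3). Brn3b-Kir2.1 mice carry a Brn3b-cre allele and a Kir2.1eYFP transgene, human Kir2.1 with a yellow fluorescent protein at its C-terminal end. A CAG promoter drives the transgene, a floxed STOP cassette keeps it silent until Cre acts, and the line came from injection of the construct into oocytes. Kir2.1 is an inwardly rectifying potassium channel that holds neurons near their resting potential, and Brn3b (Pou4f2) is a transcription factor of retinal ganglion cells. The labels disagree on 3 points: the genotype field gives wild type where the protocol names Brn3b-cre mice, the age field gives day 8 where the protocol names P11, and the source field names retinal ganglion cells where the tissue field gives retina. "Wild type" and "P8" stand here for the groups as the fields label them. The protocol describes dissociation of the isolated retina and no sorting step, and gives neither the sex of the animals nor whether retinas of several animals were pooled. No label says that replicates came from separate animals, so p-values measure the spread between these libraries, which may in part be technical.

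The respiratory chain passes electrons from NADH (complex I) and succinate (complex II) through ubiquinone to complex III, then through cytochrome c to complex IV, which reduces oxygen. The protons pumped on the way drive ATP synthase. Most subunits are encoded in the nucleus and imported, while the mitochondrial genome supplies a few hydrophobic ones, so both genomes contribute to complexes I, III, IV and ATP synthase. The retina has a high demand for ATP, and its photoreceptors fill their inner segments with mitochondria as they mature after birth.

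NRF1 is the transcription factor best known for binding promoters of nuclear respiratory genes, at a palindrome with the core CGCATGCG. Promoters were read from RefSeq (GRCm38.p6) as the 300 bases from 250 before to 50 after the annotated start, and 74 of the 93 members were in that table. CGCATGCG was found in 11 of the 74 (14.9%: Atp5g2, Atp5j, Atp5k, Atp5l, Cox6a1, Ndufa11, Ndufa8, Ndufaf4, Ndufaf5, Uqcr11 and Uqcrc1), against 1.87% of all 32851 promoters of the table and 2.07% of its 27025 genes. With the fourth base left free (CGCNTGCG, both strands, which includes the first motif), 28 members (37.8%) and 9.22% of all genes held a match. A match is a description of the letters and not a measured binding site. The 4 promoters below belong to the members that both held CGCATGCG and rose between P4 and P8 in Brn3b-Kir2.1 retina by edgeR's test on all 11 libraries. In the 11 fits that each left out a library, the rise of Cox6a1 and Uqcrc1 was called in all 11, that of Ndufa11 in 4 and that of Atp5k in 2. The promoters lie at chr5:108434350-108434649 (Atp5k, minus strand), chr5:115348909-115349208 (Cox6a1, minus strand), chr17:56717512-56717811 (Ndufa11, plus strand) and chr9:108936398-108936697 (Uqcrc1, plus strand). Capitals mark the motif, whose first base lies at -49, -161, -59 and 31, counted from 0 at the start, respectively.
Atp5k: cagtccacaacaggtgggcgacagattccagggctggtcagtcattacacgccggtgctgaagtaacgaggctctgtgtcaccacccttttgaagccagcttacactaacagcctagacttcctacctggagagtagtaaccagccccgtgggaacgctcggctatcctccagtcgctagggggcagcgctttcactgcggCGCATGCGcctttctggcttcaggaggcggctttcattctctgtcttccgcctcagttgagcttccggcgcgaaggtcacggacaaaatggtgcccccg
Cox6a1: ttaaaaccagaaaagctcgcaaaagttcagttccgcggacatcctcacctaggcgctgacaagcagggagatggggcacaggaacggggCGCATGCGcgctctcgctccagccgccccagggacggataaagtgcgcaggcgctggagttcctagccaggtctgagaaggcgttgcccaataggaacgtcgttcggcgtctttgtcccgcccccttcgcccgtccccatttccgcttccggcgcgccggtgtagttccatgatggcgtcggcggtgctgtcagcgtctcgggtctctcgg
Ndufa11: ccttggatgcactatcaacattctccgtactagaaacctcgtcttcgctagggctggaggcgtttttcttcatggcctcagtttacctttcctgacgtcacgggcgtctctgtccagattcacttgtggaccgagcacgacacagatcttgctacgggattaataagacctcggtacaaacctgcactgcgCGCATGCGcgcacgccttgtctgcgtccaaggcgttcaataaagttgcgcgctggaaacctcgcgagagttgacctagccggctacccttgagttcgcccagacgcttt
Uqcrc1: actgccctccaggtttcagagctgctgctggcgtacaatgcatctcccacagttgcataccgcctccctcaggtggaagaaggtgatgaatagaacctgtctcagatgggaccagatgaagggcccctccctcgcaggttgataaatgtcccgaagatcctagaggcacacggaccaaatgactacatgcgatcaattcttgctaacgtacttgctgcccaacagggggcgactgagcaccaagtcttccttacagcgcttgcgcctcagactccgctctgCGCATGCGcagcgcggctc

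Of 30 members that rose with age in Brn3b-Kir2.1 retina and have a promoter in the table, 4 held CGCATGCG and 11 held CGCNTGCG. Among the 42 other tested members the counts were 7 and 17. The YY1 motif AAGATGGCG was in 8 members (10.8%, against 1.64% of genes), the estrogen-related receptor motif TGACCTTG in 4 (5.41%, against 1.76%) and the GABP motif CCGGAAGT in 5 (6.76%, against 4.31%), each searched on both strands. Of the members with the YY1 motif, 1 was among the 30 that rose and 7 were among the 42 others.

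Gene counts per library ranged from 9362215 (Brn3b-Kir2.1 P8 replicate 2) to 12478838, and members took from 0.376% to 0.588% of them. Levels are given as CPM: a gene's share of the library's gene counts, after TMM scaling had set the libraries on a common scale. The libraries held marker RNA of the whole retina: the summed level of 8 retinal ganglion cell markers was 131 to 887 CPM, while 7 amacrine markers summed to 1316 to 3980 CPM and 7 rod markers to 151 to 5196 CPM. Some libraries stood apart within their group. Markers of dividing cells summed to 2327 and 857 CPM in the wild-type P4 libraries, and rod markers to 549, 2236 and 5196 CPM in the wild-type P8 libraries. Brn3b-Kir2.1 P8 replicate 2 had 31325 genes with a count, against 22609 to 24591 elsewhere. In bulk tissue, fewer cells of a type and less RNA per cell cannot be told apart.

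All 93 members had counts, and 89 passed the filter on low counts and were tested among 18188 genes. Averaged over the 11 libraries, 9 members lay above 100 CPM, 69 between 10 and 100, 10 between 1 and 10, and 5 under 1. On the scale of CPM per kilobase of exon, the members with the highest levels were Cox8a (144), Atp5b (130), Cox6a1 (125) and Atp5a1 (120). The median was 34.0 CPM per kilobase for complex III, 27.4 for complex I accessory subunits, 26.9 for ATP synthase, 25.3 for complex I core, 21.3 for complex II, 17.0 for complex IV and 6.96 for complex I assembly factors. Assembly factors, which help build complex I without staying in it, thus had levels below every subunit group by this median. The 4 untested members were tissue-restricted subunits of complex IV, whose median above was taken over all 20 genes and includes them. Cox6a2, the heart and muscle form, had 4 and 5 counts in the wild-type P4 libraries, 0 in all 3 Brn3b-Kir2.1 P4 libraries and 0 to 3 at P8, and Cox7b2, Cox8b and Cox8c had 0 to 2 counts in any library.

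Summed over all 93 members, the level was 4805 and 4726 CPM in the wild-type P4 libraries, 3873, 4243 and 4361 CPM in Brn3b-Kir2.1 P4, 5239, 5270 and 5649 CPM in wild-type P8, and 5999, 5101 and 5599 CPM in Brn3b-Kir2.1 P8. The 3 Brn3b-Kir2.1 P4 libraries were thus the lowest of the 11, all 6 P8 libraries lay above all P4 libraries, and the P8 groups overlapped. The means were 4766 ± 56.1 (SD, n = 2), 4159 ± 254 (SD, n = 3), 5386 ± 229 (SD, n = 3) and 5566 ± 449.9 CPM (SD, n = 3). Complex III showed the same order, with 433 and 408 CPM in wild-type P4 against 326, 351 and 346 in Brn3b-Kir2.1 P4. Complex II did not: its 4 genes summed to 246 and 268 CPM in wild-type P4 and 231, 262 and 253 in Brn3b-Kir2.1 P4, which overlap. Brn3b-Kir2.1 P4 replicate 1 held the lowest level of 47 of the 89 tested members.

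**Figure D1:**
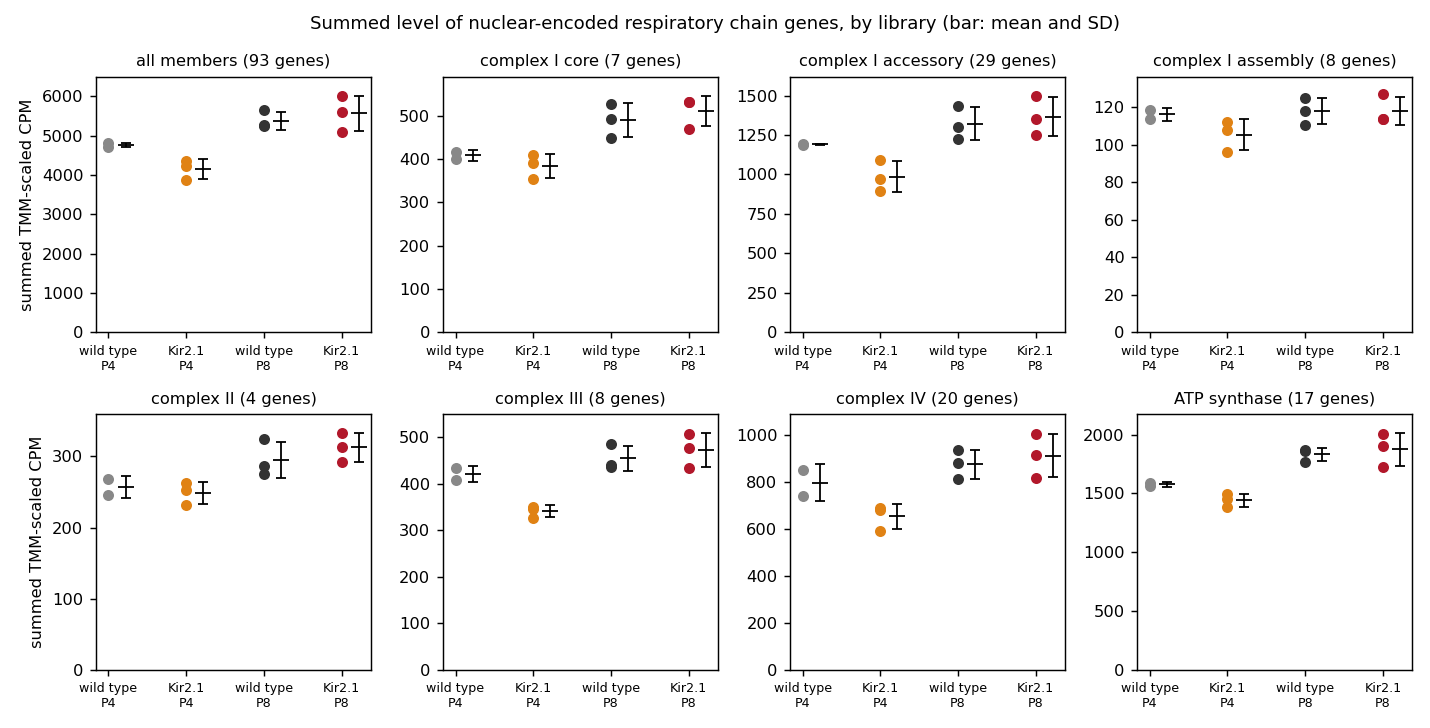
Summed TMM-scaled CPM (vertical axis, from 0) of all members and of each complex in each of the 11 libraries; points are libraries, and the bar beside each group is its mean with the SD. The Brn3b-Kir2.1 P4 libraries are lowest for all members (3873 to 4361 CPM) and for complex III (326 to 351 CPM), while the P8 groups overlap in every panel.

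In Brn3b-Kir2.1 retina, nuclear-encoded transcripts of the respiratory chain were mostly higher at P8 than at P4. By edgeR's quasi-likelihood test, 36 of the 89 tested members rose and 2 fell at an adjusted p under 0.05, while 7.93% of all tested genes rose and 8.73% fell. The median log2 fold change of the members was 0.44, against 0.0046 over all genes tested, and 81 of 89 members were on the higher side (50.4% of all genes). Calls were spread over subunits of every complex: 3 of 7 core and 13 of 29 accessory subunits of complex I rose, 1 of 4 genes of complex II, 5 of 8 of complex III, 8 of 16 of complex IV and 6 of 17 of ATP synthase. None of the 8 complex I assembly factors passed the test, and their median log2 fold change was 0.16. The other medians were 0.52 for complex III, 0.48 for complex IV, 0.45 for both accessory and core subunits of complex I, 0.34 for ATP synthase and 0.22 for complex II.

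Among the members called higher, the 6 with the highest fold changes were subunits of complexes I and IV. Ndufa4 (chr6:11900292-11907497), a complex IV subunit, had 24.5, 29.0 and 30.5 CPM at P4 and 56.6, 50.6 and 62.6 CPM at P8 in Brn3b-Kir2.1 retina, a log2 fold change of 1.01 ± 0.17 (SE; edgeR adjusted p = 0.00213). Ndufb9 (chr15:58933756-58939488), an accessory subunit of the membrane arm of complex I, had 40.5, 50.5 and 51.2 CPM at P4 and 93.4, 76.5 and 85.2 CPM at P8 (0.84 ± 0.13, edgeR adjusted p = 0.00108). Cox6c, a small complex IV subunit, had 78.5, 102 and 104 CPM at P4 and 187, 142 and 180 CPM at P8 (0.84 ± 0.16, edgeR adjusted p = 0.00413). In none of these 3 genes did the ages overlap. Cox6a1 (chr5:115345642-115348981), the widely expressed form of subunit 6a, rose from 53.4, 61.3 and 67.0 CPM to 124, 86.6 and 105 CPM (0.80 ± 0.14, edgeR adjusted p = 0.00291). Ndufv3, an accessory subunit of the NADH-oxidising arm, rose from 79.5, 78.3 and 94.2 CPM to 153, 134 and 147 CPM (0.78 ± 0.16, edgeR adjusted p = 0.00645). Ndufb3 rose from 10.8, 10.9 and 8.05 CPM to 19.3, 15.7 and 16.2 CPM (0.78 ± 0.21, edgeR adjusted p = 0.0232). The ages were again separate in all 3 genes.

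The members with the highest CPM, not scaled for length, of ATP synthase, complex III and complex IV also rose. Atp5b (chr10:128083273-128090391), the catalytic beta subunit of ATP synthase, had 436, 450 and 477 CPM at P4 and 659, 575 and 641 CPM at P8 (log2 fold change 0.46 ± 0.09, edgeR adjusted p = 0.00507). Uqcrc1, a core protein of complex III, had 86.8, 83.5 and 94.5 CPM at P4 and 129, 111 and 125 CPM at P8 (0.47 ± 0.10, edgeR adjusted p = 0.00872). In both genes every P8 library lay above every P4 library. Cox4i1, the common form of complex IV subunit 4, had 108, 124 and 126 CPM at P4 and 176, 149 and 165 CPM at P8 (0.45 ± 0.14, edgeR adjusted p = 0.0442). That call was made in 2 of the 11 fits without a library, and the highest edgeR adjusted p among them was 0.191, without Brn3b-Kir2.1 P4 replicate 1. The smallest changes called higher were those of Ndufv2 (0.36 ± 0.11, edgeR adjusted p = 0.0459), Ndufb5 (0.40 ± 0.11, edgeR adjusted p = 0.0308), Sdha and Uqcrfs1, the iron-sulfur protein of complex III (0.43 ± 0.12, edgeR adjusted p = 0.0322). Of the 11 fits without a library, these calls were made in 2, 6, 6 and 7, respectively.

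In complex II, the only complex encoded wholly in the nucleus, 1 of 4 genes passed the test. Sdha, its flavoprotein, had 132, 152 and 141 CPM at P4 and 195, 182 and 192 CPM at P8 in Brn3b-Kir2.1 retina (log2 fold change 0.42 ± 0.12, edgeR adjusted p = 0.0290). Sdhb, the iron-sulfur subunit, had 39.6, 42.4 and 43.8 CPM at P4 and 58.2, 39.97 and 47.7 CPM at P8 (0.21 ± 0.15, edgeR adjusted p = 0.397). The membrane anchors Sdhc (35.3, 39.6 and 41.7 CPM, then 49.9, 39.9 and 46.0 CPM) and Sdhd (24.2, 28.2 and 25.7 CPM, then 30.8, 30.2 and 27.7 CPM) also overlapped between ages and did not pass the test (edgeR adjusted p = 0.312 and 0.448). Ndufaf4, the assembly factor with the highest CPM, had 21.1, 27.2 and 31.1 CPM at P4 and 35.04, 28.7 and 28.2 CPM at P8 (0.21 ± 0.16, edgeR adjusted p = 0.432).

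How many members passed the test depended on the libraries, while the median did not change sign. Without Brn3b-Kir2.1 P4 replicate 1, the library with the lowest member levels, 16 members passed and the median log2 fold change was 0.36. The count was 22 without Brn3b-Kir2.1 P4 replicate 2, 17 without P8 replicate 1 and 18 without P8 replicate 3 of that genotype. Over all genes these fits called 1764 of 18068, 2169 of 18005, 2088 of 18109 and 1841 of 18095, respectively. With all libraries 3029 of 18188 genes were called. In all 11 fits that left out a library, 15 of the 38 calls were made, 14 of them higher: Ndufa4, Ndufb9, Cox6c, Cox6a1, Ndufv3, Cox8a, Atp5mpl, Uqcr10, Ndufb2, Cox5b, Cox7a2, Atp5g3, Uqcrc1 and Atp5b. The other was Ndufa4l2, which fell. Between these ages, 7 of 7 rod markers and 7 of 7 bipolar cell markers also rose in Brn3b-Kir2.1 retina. All 6 markers of dividing cells fell, their sum passing from 2451, 1932 and 1973 CPM to 112, 127 and 96.2 CPM. Of 8 ganglion cell markers 7 fell and 1, Isl1, rose, with a median log2 fold change of -1.86, and their sums overlapped between ages (131 to 429 CPM, then 330 to 381 CPM). The part of these cell types in the members' rise was not tested.

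**Figure D2:**
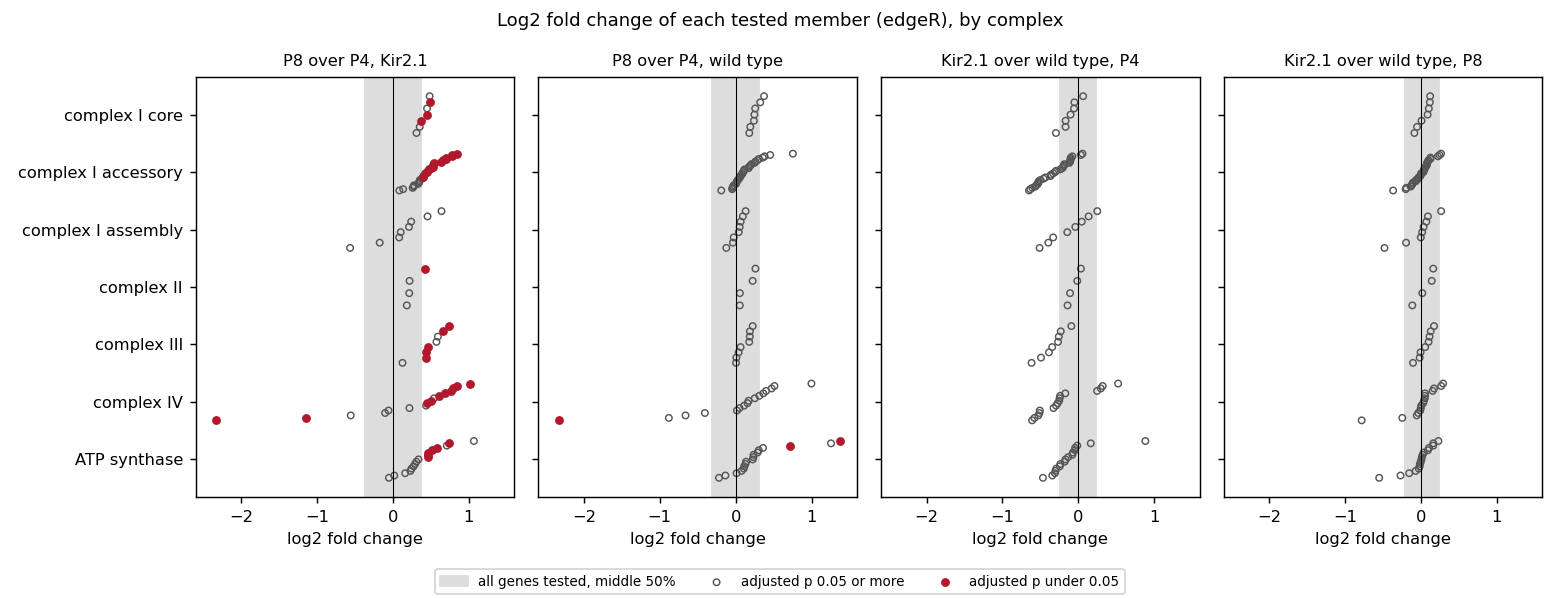
Log2 fold change of each of the 89 tested members (horizontal axis), by complex, for the 4 pairwise comparisons; filled points have an edgeR adjusted p under 0.05, and the grey band spans the middle 50% of all genes tested. In the P8 over P4 comparison of Brn3b-Kir2.1 retina 36 members are called higher and 2 lower, in wild type 2 and 1, and in the genotype comparisons 0.

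In wild-type retina the same age comparison gave few calls. By edgeR's quasi-likelihood test, 2 of 89 members rose (0.803% of all tested genes did) and 1 fell (3.58% of all did), and 75 of 89 lay on the higher side (52.6% of all genes). The median log2 fold change was 0.13, against 0.026 over all genes. Both members that rose are named for ATP synthase. Atp5l, subunit g, had 3.33 and 2.88 CPM at P4 and 8.15, 8.34 and 7.81 CPM at P8 (1.38 ± 0.31, edgeR adjusted p = 0.0270), and Atp5mpl, a small proteolipid of the complex, had 46.9 and 45.1 CPM at P4 and 69.1, 68.0 and 89.2 CPM at P8 (0.71 ± 0.17, edgeR adjusted p = 0.0381). Neither gene overlapped between ages. In the fit with the replicate number as a block, neither rise was called. Ndufa4 had 36.3 and 43.6 CPM at P4 and 47.1, 49.3 and 70.0 CPM at P8 (0.47 ± 0.19, edgeR adjusted p = 0.193). Cox6a1 had 96.9 and 87.8 CPM at P4 and 85.7, 98.8 and 95.8 CPM at P8 (0.02 ± 0.16, edgeR adjusted p = 0.970), so its ages overlapped. Wild-type P4 has 2 libraries, and none of the 3 calls held in all 11 fits without a library. Without wild-type P4 replicate 1 no member was called, and without wild-type P4 replicate 2 or wild-type P8 replicate 2 the count was 1. Cell type markers also moved with age in wild type: all 6 markers of dividing cells fell (median -4.16), as did 7 of 8 ganglion cell markers (median of the 8, -3.05). Of the bipolar cell markers 1 of 7 was called higher and all 7 were on the higher side (median 2.62), as were 7 of 7 rod markers (2.47, 0 called). The part of these cell types in the members' change was not tested.

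Whether the age change differed between genotypes was tested as an interaction, and no member passed. The difference (Brn3b-Kir2.1 minus wild type) was on the higher side in 75 of 89 members (49.5% of all genes), with a median of 0.25 on the log2 scale, against -0.0048 over all genes. By edgeR's test 0 of 89 members and 0 of 18188 genes reached an adjusted p under 0.05. At an unadjusted p under 0.05, 10 members were higher and 1 lower, while 1.8% and 1.29% of all tested genes were. DESeq2 called 0 members too. The smallest p-values were those of Cox6a1 (0.78 ± 0.21), Atp5l (-1.43 ± 0.41) and Uqcr10, a small complex III subunit (0.73 ± 0.22), each with an edgeR adjusted p = 0.99977. Atp5l had 3.91, 6.45 and 6.82 CPM in Brn3b-Kir2.1 at P4 and 6.30, 4.91 and 5.36 CPM at P8, so it lacked the separation by age seen in wild type. Markers of several cell types lay on the same side in the interaction, with 0 called: 7 of 7 rod markers (median 1.14), 7 of 7 bipolar cell markers (2.29), 8 of 8 ganglion cell markers (1.12) and 6 of 7 vascular markers (1.48). Other markers were divided or mostly lower, also with 0 called. On the higher side were 2 of 7 amacrine (-0.41) and 1 of 6 Mueller glia markers (-0.093). For cones and dividing cells 3 of 6 were (-0.057 and -0.0040), and for microglia 4 of 6 (0.23). The 40 members with at most 1500 bp of exon had a median of 0.34 and the 49 longer ones 0.20, against 0.11 for the 866 other protein-coding genes of at most that length. The part of these cell types and of length in the members' difference was not tested. The interaction and the comparisons beside it share libraries and are not independent of each other.

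At P4 most members lay lower in Brn3b-Kir2.1 than in wild-type retina, and none passed the test. The log2 fold change was on the lower side in 76 of 89 members (48.7% of all genes), with a median of -0.24 against 0.011 over all genes. By edgeR's test 0 of 89 members and 0 of 18188 genes had an adjusted p under 0.05. At an unadjusted p under 0.05, 22 members were lower and 1 was higher, against 4.72% and 2.5% of all genes. In 42 members every Brn3b-Kir2.1 library lay below both wild-type libraries (14.4% of all genes did so), and in 4 every one lay above (12.4%). All 8 genes of complex III and 27 of 29 accessory subunits of complex I were on the lower side, with medians of -0.31 for both groups. The medians were -0.26 for complex IV, -0.17 for ATP synthase, -0.10 for complex I core, -0.092 for assembly factors and -0.061 for complex II. DESeq2 called 1 of 89 members, Ndufb2 (lower, DESeq2 adjusted p = 0.0206), and 34 of 18188 genes. Without a filter on low counts edgeR called 1 of 93, Cox6a1 (lower, edgeR adjusted p = 0.0355), and 339 of 36534 genes.

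The smallest p-values at P4 belonged to subunits of complexes I and IV. Ndufb2, an accessory subunit of complex I, had 37.4 and 33.7 CPM in wild type and 22.9, 21.2 and 23.9 CPM in Brn3b-Kir2.1 (log2 fold change -0.65 ± 0.14, edgeR adjusted p = 0.583). Cox7a2, the common form of subunit 7a, had 66.1 and 62.3 CPM in wild type and 43.6, 46.2 and 45.6 CPM in Brn3b-Kir2.1 (-0.51 ± 0.12, edgeR adjusted p = 0.599). Cox6a1 had 96.9 and 87.8 CPM against 53.4, 61.3 and 67.0 CPM (-0.61 ± 0.16, edgeR adjusted p = 0.677). The groups did not overlap in these 3 genes, nor in Uqcr10, with 37.0 and 34.8 CPM in wild type and 23.7, 22.5 and 24.1 CPM in Brn3b-Kir2.1. The member on the higher side at an unadjusted p under 0.05 was Atp5l (0.88 ± 0.31, edgeR adjusted p = 0.677). Leaving out a library moved the median of all members between -0.28 and -0.16, the latter when Brn3b-Kir2.1 P4 replicate 1 was left out. It was -0.21 and -0.20 when replicate 1 or 2 of wild-type P4 was left out.

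Gene length and cell type marker levels were also compared at P4. The 40 tested members with at most 1500 bp of exon had a median log2 fold change of -0.30 and the 49 longer ones -0.15. The 866 other protein-coding genes of that length had a median of -0.16, against 0.0048 over all 14493 protein-coding genes. Retinal ganglion cell markers summed to 887 and 665 CPM in wild type and 370, 131 and 429 CPM in Brn3b-Kir2.1 at P4, with 8 of 8 markers on the lower side and 0 of 8 called by edgeR. The median log2 fold change of the ganglion cell markers was -1.36. Bipolar cell markers were on the lower side in 6 of 7 genes, with a median of -1.90 and 0 called, and their sums overlapped, at 214 and 459 CPM in wild type and 251, 306 and 237 CPM in Brn3b-Kir2.1. Vascular markers were also on the lower side in 6 of 7 genes (0 called). Markers of dividing cells (6 of 6 on the higher side, 0 called) summed to 2327 and 857 CPM against 2451, 1932 and 1973 CPM. Mueller glia markers (5 of 6 on the higher side, 0 called) summed to 995 and 962 CPM against 1218, 1308.5 and 1049.5 CPM, without overlap. Microglia markers were on the higher side in 6 of 6 genes (0 called). The part of length and of these cell types in the members' difference was not tested.

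At P8 no member passed the test between genotypes, and the median was near 0. The median log2 fold change of the members was 0.028, against 0.0034 over all genes, and 54 of 89 members were on the higher side (50.5% of all genes). By edgeR's test 0 of 89 members and 0 of 18188 genes reached an adjusted p under 0.05. No member reached an unadjusted p under 0.05, which 2.89% of all genes did on the higher and 3.93% on the lower side. DESeq2 called 0 members and 3 of 18188 genes. In 2 members (Atp5h and Ndufa10) every Brn3b-Kir2.1 library lay above the wild-type libraries (5.5% of all genes), and in 3 (Atp5e, Atp5l and Cox7a1) every one lay below (5.11%). These 5 were named after their values were seen. The smallest p-values were those of Atp5l (-0.55 ± 0.26), Ndufaf2, a complex I assembly factor (-0.48 ± 0.24), and Ndufa6, an accessory subunit of complex I (0.26 ± 0.14), each with an edgeR adjusted p = 0.699. Leaving out a library moved the median between -0.024 and 0.079.

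In the authors' deposited table for P4, 91 members had a fold change and 0 of the 87 with an adjusted p were under 0.05, while 2.27% of all 13830 genes with an adjusted p were. Of the 91 members 54 were on the lower and 37 on the higher side, and the 87 with an adjusted p had a median log2 fold change of -0.048. The authors' deposited table for P8 gave a fold change for 93 members, of which 61 were on the higher side. The 87 with an adjusted p had a median of 0.067, and 0 of the 87 were called, against 7.27% of 13396 genes. For Ndufb2 at P4 the authors' deposited table gave -0.095 with a standard error of 0.31, where the edgeR fit gave -0.65 ± 0.14. The P4 median of the members was thus nearer 0 in the authors' deposited table than in the edgeR fit. DESeq2 on the deposited counts gave a median of -0.23 at P4. The libraries behind the authors' deposited table are not given in the sources used here, and the reason for the difference was not tested.

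**Figure D3:**
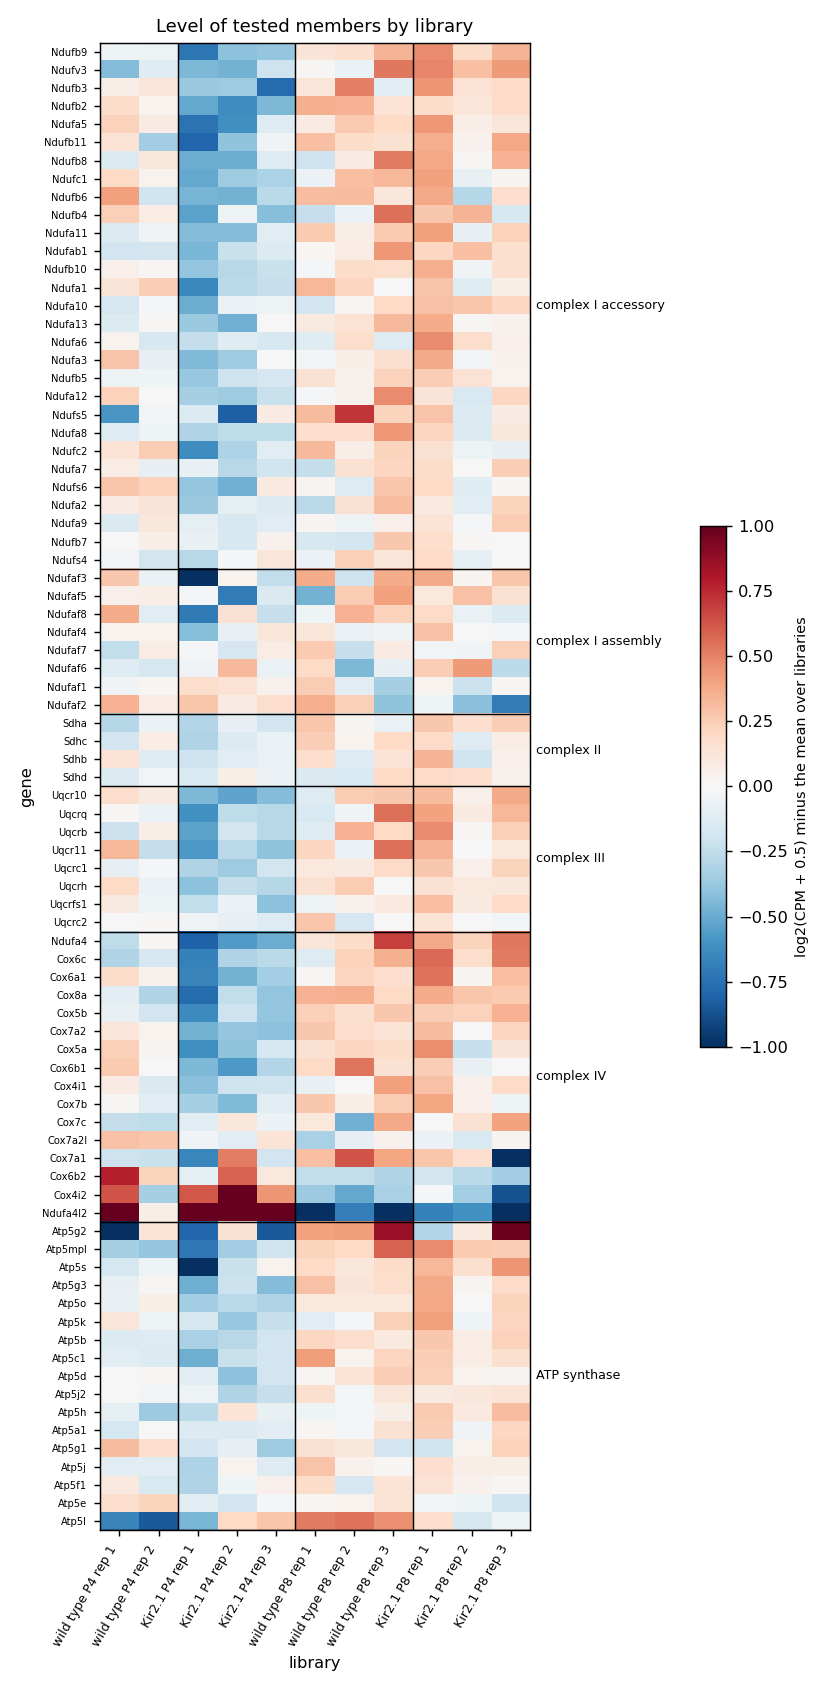
Level of 82 tested members, those outside the complex I core (rows, by complex, ordered by the P8 over P4 change in Brn3b-Kir2.1) in the 11 libraries (columns), as log2(CPM + 0.5) minus the gene's mean over libraries, capped at 1 and -1. Brn3b-Kir2.1 P4 replicate 1 holds the lowest level of 42 of them. In Brn3b-Kir2.1 retina Ndufa4l2 and Cox4i2 are lower at P8, where most other complex IV genes are higher.

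Complex IV holds several pairs of alternative subunits, and in 2 of them the alternative form fell with age in Brn3b-Kir2.1 retina by edgeR's test, while the common form rose (for Cox4i1 in 2 of the 11 fits without a library). Ndufa4l2 (chr10:127514967-127517154) is a hypoxia-inducible relative of Ndufa4. It had 71.9 and 21.7 CPM in wild-type P4, 60.2, 69.2 and 42.9 CPM in Brn3b-Kir2.1 P4, 6.69, 12.8 and 8.54 CPM in wild-type P8, and 12.8, 13.5 and 8.03 CPM in Brn3b-Kir2.1 P8. It fell by 2.33 ± 0.40 on the log2 scale in Brn3b-Kir2.1 retina (edgeR adjusted p = 0.00238) and by 2.32 ± 0.43 in wild type (edgeR adjusted p = 0.00870). Every P8 library lay below every P4 library, and the wild-type P4 replicates differed widely. Without wild-type P4 replicate 1 the wild-type change no longer passed (edgeR adjusted p = 0.263), whereas the Brn3b-Kir2.1 change passed in all 11 fits without a library. The difference between genotypes in this change was -0.01 ± 0.61.

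Cox4i2 (chr2:152754173-152765037), the oxygen-sensitive form of subunit 4, had 16.6 and 8.29 CPM in wild-type P4, 16.5, 22.6 and 14.5 CPM in Brn3b-Kir2.1 P4, 8.06, 7.23 and 8.30 CPM in wild-type P8, and 10.4, 8.24 and 5.53 CPM in Brn3b-Kir2.1 P8. It fell by 1.15 ± 0.30 on the log2 scale in Brn3b-Kir2.1 retina (edgeR adjusted p = 0.0224), where the ages did not overlap. The adjusted p passed 0.05 without Brn3b-Kir2.1 P4 replicate 2, P8 replicate 2 or P8 replicate 3, reaching 0.0916. In wild type the ages overlapped (-0.66 ± 0.33, edgeR adjusted p = 0.306). Its partner Cox4i1 had 152 and 130 CPM in wild-type P4 and 137, 144 and 191 CPM in wild-type P8 (0.16 ± 0.16, edgeR adjusted p = 0.651). Per kilobase of exon, the level of Cox4i2 was 6.61% to 35.8% of that of Cox4i1 in the 11 libraries. The level of Ndufa4l2 per kilobase was 250.2% and 62.6% of that of Ndufa4 in wild-type P4, 310.3%, 300.9% and 177% in Brn3b-Kir2.1 P4, and 15.4% to 33.5% at P8. Ndufa4l2 thus stood above Ndufa4 in 4 of the 5 P4 libraries and below it in all 6 P8 libraries.

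Ndufa4l2 and Cox4i2 are known from pericytes, the mural cells of small vessels, as well as from hypoxic cells. The pericyte marker Rgs5 had 4.79 and 10.997 CPM in wild-type P4, 6.05, 4.22 and 8.49 CPM in Brn3b-Kir2.1 P4, 32.1, 21.5 and 18.6 CPM in wild-type P8 and 40.4, 39.1 and 18.8 CPM in Brn3b-Kir2.1 P8. It rose in Brn3b-Kir2.1 retina (2.39, edgeR adjusted p = 0.00182). Pdgfrb, also a pericyte marker, had a log2 fold change of 0.66 there (edgeR adjusted p = 0.339). Of the 7 vascular markers Kdr fell (-0.94, edgeR adjusted p = 0.00816) and Pecam1 rose (1.74, edgeR adjusted p = 0.0498). In Brn3b-Kir2.1 retina 6 of the 7 were on the higher side at P8, with a median log2 fold change of 1.76. Between genotypes at P4, 6 of 7 were on the lower side in Brn3b-Kir2.1 and 0 were called, with a median of -1.07. The sum of the 7, most of it Kdr (250 to 713 CPM), was 426 to 556 CPM in wild-type P4, 443 to 733 in Brn3b-Kir2.1 P4, 320 to 486 in wild-type P8 and 323 to 513 in Brn3b-Kir2.1 P8. Markers of dividing cells fell with age as Ndufa4l2 did, and in wild-type P4 both were higher in replicate 1 (2327 against 857 CPM for the markers). The part of pericytes, other vascular cells and dividing cells in the fall of Ndufa4l2 and Cox4i2 was not tested.

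**Figure D4:**
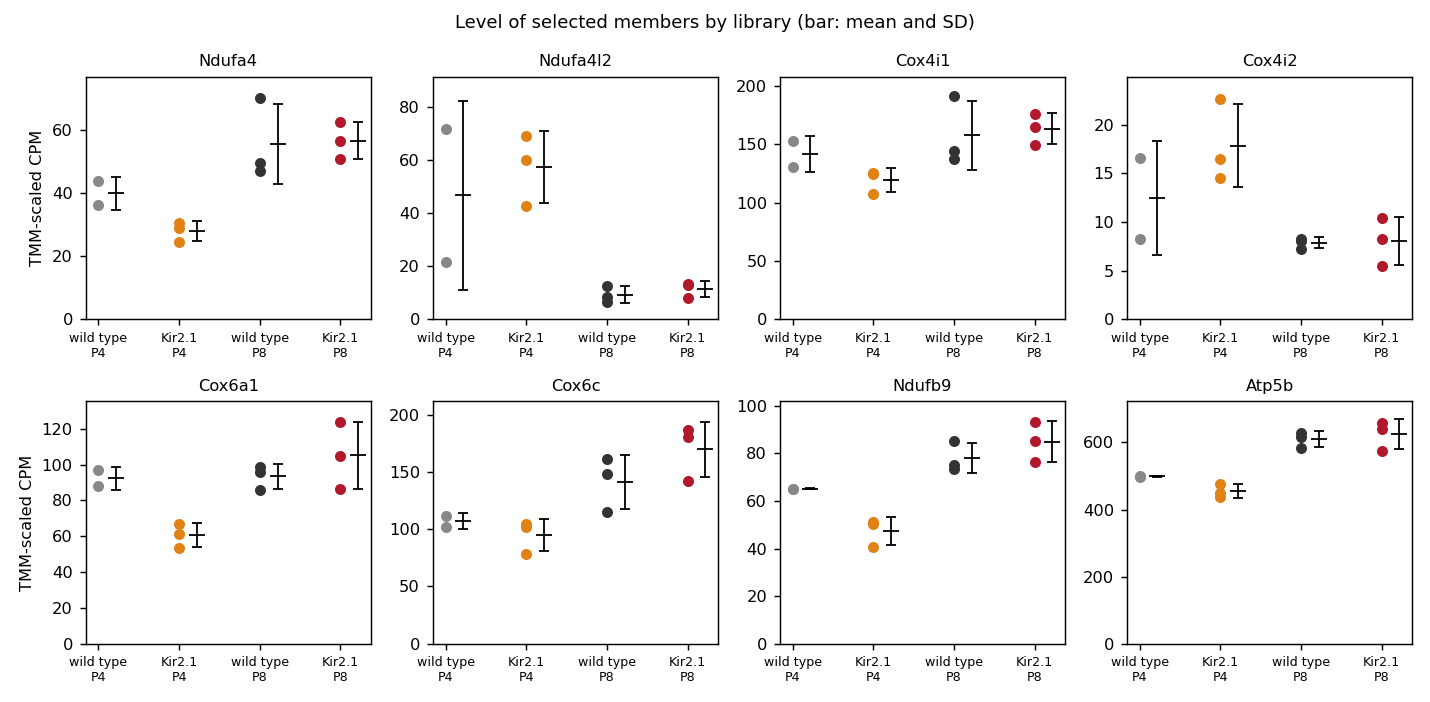
TMM-scaled CPM (vertical axes, from 0) of 8 members in each library; points are libraries, and bars give the mean and SD of each group. Ndufa4l2 and Cox4i2 are lower at P8 in Brn3b-Kir2.1 retina, where Ndufa4 and Cox4i1 are higher, and Cox6a1 is lowest in the 3 Brn3b-Kir2.1 P4 libraries (53.4 to 67.0 CPM).

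In the Cox6b and Cox7a sets the common form had the higher level per kilobase of exon in all 11 libraries. Cox6b1 averaged 84.4 CPM per kilobase and Cox6b2, its testis form, 3.87. Cox6b1 had 42.6, 39.1 and 47.5 CPM at P4 and 69.2, 55.5 and 58.1 CPM at P8 in Brn3b-Kir2.1 retina (log2 fold change 0.50 ± 0.15, edgeR adjusted p = 0.0344). Cox6b2 had 3.81, 6.45 and 4.46 CPM, then 3.56, 3.34 and 3.12 CPM (-0.56 ± 0.30, edgeR adjusted p = 0.244). The ages were separate in both genes, in opposite directions, and Cox6b2 did not pass the test. Cox7a2 averaged 65.3 CPM per kilobase, Cox7a2l, a factor that joins complexes into supercomplexes, 16.0, and Cox7a1, the heart and muscle form, 1.76. Cox7a2 rose with age in Brn3b-Kir2.1 (43.6, 46.2 and 45.6 CPM to 75.5, 60.7 and 70.2 CPM, 0.61 ± 0.11, edgeR adjusted p = 0.00324). Cox7a2l had 22.8, 21.6 and 25.7 CPM and then 22.4, 20.98 and 23.8 CPM (-0.06 ± 0.15, edgeR adjusted p = 0.848), so its ages overlapped. Cox7a1 lay between 0.179 and 1.62 CPM in the 11 libraries. Cox7b had 39.9, 36.9 and 46.7 CPM at P4 and 66.3, 52.3 and 48.5 CPM at P8 (0.44 ± 0.14, edgeR adjusted p = 0.0580). Cox8a, the common form of subunit 8, rose from 50.5, 72.8 and 65.5 CPM to 112, 105 and 104 CPM (0.77 ± 0.13, edgeR adjusted p = 0.00262) and had 79.8 and 70.2 CPM, then 110, 111 and 99.5 CPM, in wild type (0.51 ± 0.15, edgeR adjusted p = 0.0827). Its ages were separate in both genotypes.

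The membrane ring of ATP synthase is built from subunit c, for which 3 genes encode the same mature protein. Atp5g3 averaged 37.3 CPM per kilobase, Atp5g1 2.35 and Atp5g2 0.911. Atp5g3 rose in Brn3b-Kir2.1 retina from 56.8, 68.8 and 59.1 CPM to 104, 81.4 and 91.5 CPM (0.58 ± 0.12, edgeR adjusted p = 0.00676), with no overlap between ages. Atp5g1 had 9.95, 10.7 and 8.84 CPM, then 9.86, 11.7 and 13.5 CPM (0.24 ± 0.20, edgeR adjusted p = 0.458). Atp5g2 lay between 0.342 and 3.12 CPM in the 11 libraries, and 38.4% of its 50-base exon stretches also occur in other genes. By that measure 41 members shared none, the median was 0.701%, and 8 shared over 20%: Ndufaf2, Atp5o, Atp5g2, Ndufb6, Ndufa13, Uqcrb, Cox7c and Ndufs5. Levels of those 8 are uncertain, because the deposited tables list reads that align to several places apart from the genes.

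The subunits encoded in the mitochondrial genome were ordered differently across the P4 groups. Their sum was 8271 and 8304 CPM in wild-type P4, 10731, 9445 and 9491 CPM in Brn3b-Kir2.1 P4, 9971, 9876 and 8569 CPM in wild-type P8 and 10302, 7844 and 9648 CPM in Brn3b-Kir2.1 P8. At P4 the 3 Brn3b-Kir2.1 libraries thus lay above both wild-type libraries, where the members' sums lay below. Of 13 genes 9 were tested, and 0 passed edgeR's test in any comparison. At P4 all 9 were on the higher side in Brn3b-Kir2.1, with a median log2 fold change of 0.34, and between ages in Brn3b-Kir2.1 the median was -0.14, with 7 of 9 on the lower side. Between ages in wild type 8 of 9 were on the higher side, with a median of 0.20. In the interaction all 9 were on the lower side, with a median of -0.41. All values are shares of the same library totals.

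Genes that work beside the chain were compared between ages in Brn3b-Kir2.1 retina, where 7.93% of all tested genes rose and 8.73% fell. In the tricarboxylic acid cycle, which feeds electrons to the chain, 5 of 16 genes rose and 1 fell by edgeR's test, with a median log2 fold change of 0.34. Mdh2, malate dehydrogenase, rose by 0.40 ± 0.11 (edgeR adjusted p = 0.0222) and Suclg1 by 0.51 ± 0.14 (edgeR adjusted p = 0.0253), while Suclg2 fell by 1.61 ± 0.36 (edgeR adjusted p = 0.00953). Suclg1 and Suclg2 encode partner subunits of succinyl-CoA ligase, and they went opposite ways. In glycolysis 5 of 20 genes rose and 0 fell, with a median of 0.26. Hk1, the hexokinase bound to mitochondria, rose by 1.19 ± 0.14 (edgeR adjusted p = 0.000224), and Aldoa, Eno2 and Aldoc rose by 0.84 ± 0.11, 0.87 ± 0.14 and 1.70 ± 0.28 (edgeR adjusted p = 0.000491, 0.00181 and 0.00206). In wild type Hk1, Aldoa and Eno2 were the 3 of 20 glycolysis genes called (0.803% of all tested genes rose), at 0.63 ± 0.16, 0.51 ± 0.12 and 0.64 ± 0.16 (edgeR adjusted p = 0.0394, 0.0393 and 0.0449).

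Of 18 genes for mitochondrial import, carriers and cristae, 2 rose with age in Brn3b-Kir2.1 retina, a share near that of all tested genes (7.93%): Slc25a4, an ADP/ATP carrier (0.68 ± 0.11, edgeR adjusted p = 0.00182), and Vdac1, the outer membrane channel (0.46 ± 0.13, edgeR adjusted p = 0.0335). Of 38 tested assembly factors whose names fall outside the rule, 4 rose, also near that share: Ttc19 (0.61 ± 0.11, edgeR adjusted p = 0.00237) and Uqcc3 (0.63 ± 0.19, edgeR adjusted p = 0.0440), which act on complex III, Cox16 on complex IV (0.71 ± 0.21, edgeR adjusted p = 0.0364) and Ecsit on complex I (0.58 ± 0.17, edgeR adjusted p = 0.0393). None of the 7 tested electron carriers passed. Cycs, somatic cytochrome c, had 4.37, 2.99 and 5.77 CPM at P4 and 6.71, 3.13 and 3.66 CPM at P8 in Brn3b-Kir2.1 retina (0.05 ± 0.37, edgeR adjusted p = 0.955). Outside glycolysis, no gene of these lists was called with age in wild type, and none of any list was called in the genotype comparisons or the interaction.

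Regulators of mitochondrial genes were divided. Of 19, 4 rose and 3 fell with age in Brn3b-Kir2.1 retina by edgeR's test (7.93% and 8.73% of all tested genes did), with a median log2 fold change of 0.031. Ppargc1a, a coactivator of mitochondrial biogenesis, had 22.9, 30.9 and 20.4 CPM at P4 and 42.1, 41.6 and 45.9 CPM at P8 (0.80 ± 0.18, edgeR adjusted p = 0.0115), and in wild type 22.2 and 33.4 CPM, then 42.7, 48.8 and 42.1 CPM (0.68 ± 0.21, edgeR adjusted p = 0.0934). Its relative Ppargc1b rose from 13.9, 11.8 and 11.02 CPM to 71.9, 94.3 and 90.0 CPM (2.80 ± 0.56, edgeR adjusted p = 0.00517). The ages were separate in both coactivators. Ppara, a nuclear receptor of fatty acid oxidation, rose from 0.558, 0.384 and 0.962 CPM to 8.45, 9.50 and 9.64 CPM (3.84 ± 0.92, edgeR adjusted p = 0.0139), and Polg, the mitochondrial DNA polymerase, fell by 0.53 ± 0.11 (edgeR adjusted p = 0.00735). Nrf1 had 103, 97.1 and 91.6 CPM at P4 and 74.6, 83.3 and 81.7 CPM at P8 (-0.28 ± 0.16, edgeR adjusted p = 0.269). Esrra (0.12 ± 0.19, edgeR adjusted p = 0.735) and Tfam, which packages mitochondrial DNA (-0.13 ± 0.15, SE), did not pass the test either.

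The spread between replicates was described by the coefficient of variation. The median coefficient of variation of the tested members was 6.94% in wild-type P4, 11.2% in Brn3b-Kir2.1 P4, 12.6% in wild-type P8 and 11.1% in Brn3b-Kir2.1 P8, against 15.7%, 17.0%, 23.3% and 15.9% over all genes tested. Level was not matched in this comparison.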

How the data were processed

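RNA-seq of mouse retina was analysed from 11 libraries, grouped by their titles. The authors deposited whole-number read counts per Ensembl gene for each library; the submitters' processing notes name cutadapt 1.18, STAR 2.5.0c, SAMtools 1.9, HTSeq 0.6.1, bedtools 2.26.0, DESeq2 and mm10, without their roles. The last lines of each table, records not assigned to a gene (74.6% to 79.8% of all), stayed out of library sizes. The authors also deposited comparison tables with, per the file headers, log2 fold changes with standard errors, a test score and p-values. Symbols, biotypes and exon lengths came from GENCODE M21, which named 46488 IDs.

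One edgeR 4.0.16 quasi-likelihood model (R 4.3.3, TMM, filterByExpr, 7 residual degrees of freedom) was fitted to the 4 groups over 18188 genes, with Benjamini-Hochberg adjusted p-values over all of them; it was tested on simulated data. The called threshold was 0.05. Alternatives were DESeq2 1.42.0 (test and size factors), no filter, dropping the 5 genes that took over 1% of any library, the replicate number as a block, and leaving out each library. Members, lists and tests were chosen with earlier results of these data known. Members named are the highest of each complex, the complex II genes, the isoform sets, and the called members (if over 12, the 6 highest and 6 lowest) or else the 3 smallest p-values of each comparison. Results for some named genes are not reported here. The splits by length, shared 50-base stretches and promoter motifs were added after the data were seen. CPM intervals were not computed, and n limits the precision.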

Additional observations from a re-analysis of the deposited data

How the results depend on the processing

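Medians of the members kept their direction under every alternative except for genotype at P8, and moved by less than the spread between replicates (0.0936 on the log2 scale); no named member that was called reversed its direction. Of the members, DESeq2 and edgeR with no filter each called 1 between genotypes at P4 (0 in the fit reported). Over all genes, DESeq2 called 34 at P4, 3 at P8 and 1545 with age in wild type (0, 0 and 798 in the fit reported), and with no filter 339, 447 and 2058 were called, and 136 in the interaction (0 reported). Leaving out each library in turn gave 16 to 41 members called with age in Brn3b-Kir2.1 and 0 to 3 in wild type, with medians of 0.35 to 0.48 and 0.097 to 0.16. For genotype no member was called, with medians of -0.28 to -0.16 at P4, -0.024 to 0.079 at P8 and 0.19 to 0.33 for the interaction. The same fits called 1764 to 3676 genes with age in Brn3b-Kir2.1, 163 to 1339 in wild type (163 without wild-type P4 replicate 1), 0 to 6 for genotype at P4, 0 to 219 at P8 (219 without wild-type P8 replicate 3) and 0 to 1 for the interaction. For fits that left wild-type P4 with 1 library, that library was assumed to vary like the other groups. With the cause not tested in each case, 67 values of named genes lost their call under an alternative and 6 gained it. Removing the genes above 1% of a library makes the library totals smaller, which raises CPM. Under that setting 4 group means of the summed CPM moved by over 1 SD.

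With the replicate number as a block, 34 members were called with age in Brn3b-Kir2.1 (38 without), 1 in wild type (3 without) and 0 for genotype at either age and for the interaction. Over all 18188 genes the block gave 2928 calls with age in Brn3b-Kir2.1 (3029 without), 558 in wild type (798 without) and 0 otherwise. The numbers do not pair the libraries: same-number correlations of deviations ran from -0.076 to 0.14, and 3 of 15 passed 0.1. Of the pairs of groups with 3 libraries each, the Brn3b-Kir2.1 ages were the only one in which each library correlated best with its own number (0.048 to 0.14, against at most 0.034 otherwise), a hint from the data and not the design.

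Depth limits the low members: 5 averaged under 1 CPM. Counts of a member were taken from gene totals of 9362215 to 12478838, and p-values and SDs rest on 2 or 3 libraries a group.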
